A study of Mus musculus with 4 samples.

Results

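The genes described here are 8 genes associated with lymphoid-tissue-inducer (LTi) cells, out of 31053 genes in the count matrices: Tmem176a, Tmem176b, Rasl11a, Pxdc1, Lta, Ltb, Tnfsf11 and Ahr. They were taken as a named list and not by a threshold on their levels, though with earlier results of these data known, and all 8 were measured in each of the 4 libraries. The study measured single-cell RNA by 3′ droplet sequencing in CD45+ cells (cells carrying the common leukocyte surface protein) sorted from the Peyer's patches of female wild-type Taconic mice. The SFB-positive mice carried segmented filamentous bacteria, a gut commensal that attaches to the ileal epithelium, and the SFB-negative mice did not; each group has 2 libraries, labelled replicates 1 and 2. The patches of 5 mice per group were pooled, and whether the replicates of a group are separate pools is not given in the sources used here, so the spread between libraries may be technical. The age of the mice is not given in those sources either.

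LTi cells are innate lymphocytes that start the building of lymph nodes and Peyer's patches before birth; in the adult they form part of the type 3 innate lymphoid cells (ILC3s). They act on stromal cells through the membrane heterotrimer of lymphotoxin alpha and beta (Lta, Ltb), which engages the lymphotoxin beta receptor and the non-canonical NF-κB pathway, and through RANK ligand (Tnfsf11). Neither ligand is private to them, since B cells express lymphotoxin and activated T cells express RANK ligand. Ahr encodes a ligand-activated transcription factor that ILC3s need for their maintenance in the gut.

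The 4 libraries held 4031 and 10338 barcodes in the SFB-positive group and 4595 and 12921 in the SFB-negative group, with median depths of 1273 and 5786 UMIs in SFB-positive and 1278 and 2875 UMIs in SFB-negative libraries (UMIs are unique molecular identifiers, each counting 1 captured RNA molecule). In the authors' table of clustered cells 4 B-cell genes summed to 5908 and 2939 CPM (UMIs per 1000000 gene UMIs of the set) in SFB-positive and 6384 and 2951 CPM in SFB-negative libraries, and 6 T-cell genes to 18.3 and 10.1 CPM in SFB-positive and 17.0 and 22.5 CPM in SFB-negative libraries. LTi-type cells were therefore sought among the 448 and 2175 SFB-positive and the 448 and 3483 SFB-negative barcodes outside it with mitochondrial genes under 10% of gene UMIs. These were split by the sum of Cd3d, Cd3e and Cd3g, subunits of the T-cell receptor complex. Cd3-positive barcodes (1 or more UMIs) numbered 321 and 1383 in SFB-positive and 297 and 1256 in SFB-negative libraries. Cd3-zero barcodes numbered 127 and 792 in SFB-positive and 151 and 2227 in SFB-negative libraries, and many of these carried B-cell genes: 83 and 513 in SFB-positive and 72 and 1397 in SFB-negative libraries had 2 or more UMIs over 4 B-cell genes, Cd79a and Cd79b among them (B-gene-positive). The B-gene-low barcodes, with under 2 UMIs of these genes, numbered 44 and 279 in SFB-positive and 79 and 830 in SFB-negative libraries. Libraries of the same replicate number shared 30 barcodes (replicate 1) and 40 barcodes (replicate 2), against 0 or 1 for the other pairs. The number that libraries of these sizes would share by chance was not computed, so no link between libraries is drawn from it.

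The 8 genes did not share 1 location. Tmem176a, Tmem176b, Rasl11a and Tnfsf11 were concentrated outside the table. Table cells held most of the UMIs of Pxdc1, Lta, Ltb and Ahr, but also most of the UMIs of all genes. They held 5959717 and 59627373 gene UMIs in SFB-positive and 6337385 and 32250501 in SFB-negative libraries. Cd3-zero barcodes held 322728 and 11045391 in SFB-positive and 263966 and 7475919 in SFB-negative libraries. Cd3-positive barcodes held 535390 and 11491656 in SFB-positive and 512568 and 5292609 in SFB-negative libraries. A high share in table cells thus does not by itself place a gene in B cells. The B-gene-low Cd3-zero barcodes made up 1.14% and 2.92% of the barcodes used in SFB-positive libraries and 1.76% and 7.40% in SFB-negative libraries. They held 42.1% and 37.7% of the Tmem176a UMIs in SFB-positive libraries and 76.4% and 56.1% in SFB-negative libraries. For Rasl11a the same shares were 52.9% and 63.2% in SFB-positive libraries, against 91.1% and 63.5% in SFB-negative libraries. Of the Ltb UMIs, table cells held 85.0% and 74.5% in SFB-positive libraries and 82.8% and 72.0% in SFB-negative libraries. Of the Ahr UMIs they held 91.5% and 77.2% in SFB-positive libraries and 91.9% and 70.6% in SFB-negative libraries. In a summed level, fewer cells of a type and less RNA per cell cannot be told apart.

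**Figure D1:**
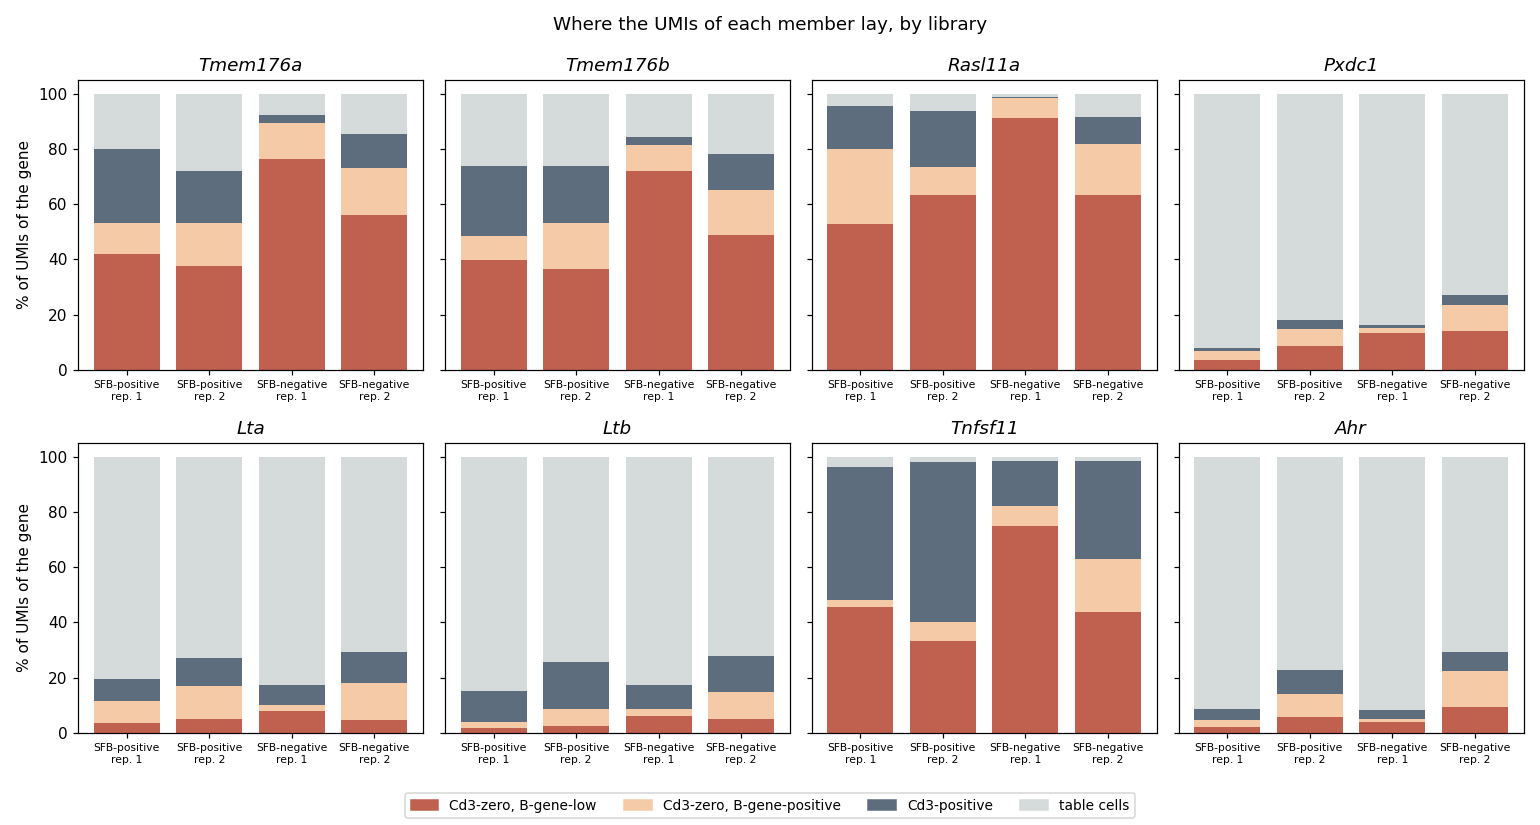
Share of each gene's UMIs (y axis, percent of the UMIs in barcodes used) by barcode set (colours) in each library (x axis, SFB-positive left of SFB-negative). Table cells hold 70.6% or more of the Pxdc1, Lta, Ltb and Ahr UMIs in each library, and 27.8% or less of those of the other 4 genes. They also hold most of the UMIs of all genes in each library.

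Tmem176a and Tmem176b encode paralogous four-pass membrane proteins of intracellular vesicles, and their genes lie head to head on chromosome 6 (mm10): Tmem176a on the plus strand at chr6:48840919-48847071 and Tmem176b on the minus strand at chr6:48833818-48841496. The annotated genes overlap by 578 bases at their 5′ ends (chr6:48840919-48841496), far from the 3′ ends that a 3′ kit reads; the strand setting of the authors' counting is not given in the sources used here. An annotated start site of Tmem176a (position 48841483) and one of Tmem176b (position 48841374) are 109 bases apart, so a single RefSeq promoter window covers both. That window (chr6:48841233-48841532, plus strand, GRCm38.p6) is shown because the levels of the 2 genes were closely correlated over the barcode sets, with a κB-like match in capitals, and beside it the window of Ltb (chr17:35194257-35194556, plus strand), whose own match is at nearly the same place in its window:
Tmem176a: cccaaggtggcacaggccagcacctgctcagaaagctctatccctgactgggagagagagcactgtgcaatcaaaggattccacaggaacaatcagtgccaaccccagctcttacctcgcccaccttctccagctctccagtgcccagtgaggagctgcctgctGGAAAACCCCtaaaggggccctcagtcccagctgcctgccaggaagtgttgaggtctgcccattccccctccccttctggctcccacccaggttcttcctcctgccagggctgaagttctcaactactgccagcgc
Ltb: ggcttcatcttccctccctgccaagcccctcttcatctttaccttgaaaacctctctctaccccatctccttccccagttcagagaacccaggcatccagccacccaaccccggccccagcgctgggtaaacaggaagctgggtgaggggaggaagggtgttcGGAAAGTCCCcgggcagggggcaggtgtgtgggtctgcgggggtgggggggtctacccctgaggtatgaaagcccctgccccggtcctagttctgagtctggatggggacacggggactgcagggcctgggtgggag

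The match (GGG, any bases NN, then TTTCC, searched on both strands and here read on the reverse) starts at window position 165 for Tmem176a and 164 for Ltb, and 1.63% of all 32851 RefSeq mouse windows hold it. The like position depends on the window shown: in a Tmem176b window the same site starts at position 219. The other windows of Tmem176a and Tmem176b hold no such match. RefSeq windows were found for 7 of the 8 genes (all but Ahr). GCGTG, the core letters of the Ahr response element, is in the windows of Rasl11a and Pxdc1, and in 32.4% of all windows. These matches describe letters in a window and say nothing of binding.

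In B-gene-low Cd3-zero barcodes Tmem176a stood at 760 and 299 CPM in SFB-positive libraries, against 1415 and 240.6 CPM in SFB-negative libraries. Tmem176b stood at 798 and 305 CPM in SFB-positive libraries and at 1383 and 208 CPM in SFB-negative libraries. For both genes the replicate 1 libraries were high and the replicate 2 libraries low in each group, so the groups overlapped. Tmem176a and Tmem176b were usually detected in the same barcodes: of the B-gene-low barcodes with Tmem176a, Tmem176b was also seen in 14 of 15 and 63 of 70 in SFB-positive libraries and in 46 of 48 and 93 of 110 in SFB-negative libraries. Among barcodes without Tmem176a, the share with Tmem176b was 13.8% and 6.22% in SFB-positive libraries, against 6.45% and 3.61% in SFB-negative libraries. Barcodes with Tmem176a were deeper, with median UMIs of 2003 and 8153 (SFB-positive) and 1939 and 3681 (SFB-negative), against 1266 and 2199 (SFB-positive) and 1108 and 1401 (SFB-negative) in those without it. Across 37 library-by-set sums of at least 20 barcodes, the Pearson correlation of log2(CPM + 1) between the 2 genes was 0.96; the sums share libraries, so this is a description. The non-member genes most like Tmem176a over 12494 genes were Ckb (0.92), Ccrl2 (0.87) and Nrp1 (0.87).

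In table clusters 0 to 4 Tmem176a averaged at most 3.98 ± 3.41 CPM and Tmem176b at most 7.66 ± 5.06 CPM (SD, n = 4 libraries, cluster 4). Cluster 6 was higher: Tmem176a stood at 90.8 and 133 CPM in SFB-positive libraries and at 69.4 and 94.0 CPM in SFB-negative libraries. Cluster 6 held 24 and 68 SFB-positive and 6 and 30 SFB-negative cells, so the first SFB-negative value rests on 3 UMIs and no test was made.

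Rasl11a encodes a small Ras-like GTPase. In B-gene-low Cd3-zero barcodes it stood at 352 and 158 CPM in SFB-positive libraries and at 1152 and 103 CPM in SFB-negative libraries, so the SFB-positive values lay between those of the SFB-negative libraries. In clusters 0 to 4 it averaged at most 1.14 ± 0.965 CPM (SD, n = 4, cluster 4), and in cluster 6 no UMI was found in any library. Gjb2 and Klrb1b were among the non-member genes most like Rasl11a over the 37 sums (both 0.96). The share of B-gene-low barcodes with Tmem176a among those with Rasl11a was 8 of 8 and 31 of 31 in SFB-positive libraries, and 29 of 30 and 43 of 47 in SFB-negative libraries.

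Tnfsf11, RANK ligand, stood at 352 and 403 CPM in B-gene-low Cd3-zero barcodes of SFB-positive libraries, against 638 and 162 CPM in SFB-negative libraries. In Cd3-positive barcodes Tnfsf11 stood at 72.8 and 89.1 CPM in SFB-positive libraries and at 42.9 and 45.7 CPM in SFB-negative libraries. There the SFB-positive libraries lay above both SFB-negative libraries. Cd3-positive barcodes held 48.1% and 58.1% of the Tnfsf11 UMIs in SFB-positive libraries, against 16.2% and 35.7% in SFB-negative libraries. In clusters 0 to 4 it averaged at most 0.744 ± 0.400 CPM (SD, n = 4, cluster 1). Its closest non-member genes were Areg (0.98), Cxcr6 (0.96) and Adgrg5 (0.95).

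Lta and Ltb, the lymphotoxin subunits, are near neighbours on chromosome 17 with Tnf between them (Ltb at chr17:35194439-35196320, plus strand; Lta at chr17:35203165-35205351, minus strand). Ltb stood at 494 and 261 CPM in B-gene-low Cd3-zero barcodes of SFB-positive libraries and at 1358 and 279 CPM in those of SFB-negative libraries. Cd3-positive barcodes held 594 and 223 CPM of Ltb in SFB-positive libraries, against 593 and 255 CPM in SFB-negative libraries, so replicates of the same number were close and the numbers differed. Cluster 4 had the most Ltb among table clusters, at 655 and 288 CPM in SFB-positive libraries and at 695 and 330 CPM in SFB-negative libraries, and was above the next, cluster 1, in 4 of 4 libraries. Cluster 2 had the least, 224 ± 100 CPM (SD, n = 4). Lta was sparse: in B-gene-low barcodes it reached 28.5 and 24.7 CPM in SFB-positive libraries, against 62.6 and 4.38 CPM in SFB-negative libraries, on 3 and 36 against 10 and 8 UMIs. A single barcode held 17 of the 36 UMIs in SFB-positive replicate 2. Among table clusters Lta was highest in cluster 3, at 19.0 and 16.1 CPM in SFB-positive libraries and at 27.9 and 6.06 CPM in SFB-negative libraries. Cluster 3 exceeded the next cluster (1) in 4 of 4 libraries.

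Ahr had a different pattern from the rest. In B-gene-low Cd3-zero barcodes it stood at 85.5 and 327 CPM in SFB-positive libraries and at 81.4 and 222 CPM in SFB-negative libraries, so its values went with the replicate number. Cluster 4 had 174 and 235 CPM of Ahr in SFB-positive libraries, against 163 and 240 CPM in SFB-negative libraries. The order over table clusters was cluster 4 (203 ± 40.1 CPM), cluster 2 (157 ± 63.2), cluster 1 (76.0 ± 38.2), cluster 0 (63.9 ± 13.96) and cluster 3 (19.6 ± 4.89; SD, n = 4). Each step held in 4 of 4 libraries except that between clusters 1 and 0, which held in 2. The correlation of Ahr with the other members over the 37 sums lay between -0.07 (Lta) and 0.21 (Rasl11a), and its closest non-member genes were Marcks (0.84), Ccr6 (0.82) and Tmcc3 (0.78).

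Pxdc1, a gene with a PX domain, was high both outside and inside the table. It stood at 371 and 322 CPM in B-gene-low Cd3-zero barcodes of SFB-positive libraries and at 1158 and 220 CPM in those of SFB-negative libraries. In cluster 1 Pxdc1 stood at 274 and 154 CPM in SFB-positive libraries and at 278 and 136 CPM in SFB-negative libraries, above cluster 2 in 4 of 4 libraries. Its lowest table cluster was cluster 3 (55.7 ± 34.6 CPM), and it was lower still in Cd3-positive barcodes (22.1 ± 6.75 CPM; SD, n = 4). The annotation places an opposite-strand gene over Pxdc1 (Gm15908) and one over Ahr (Gm48236), whose reads cannot be told apart from theirs without the strand setting.

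**Figure D2:**
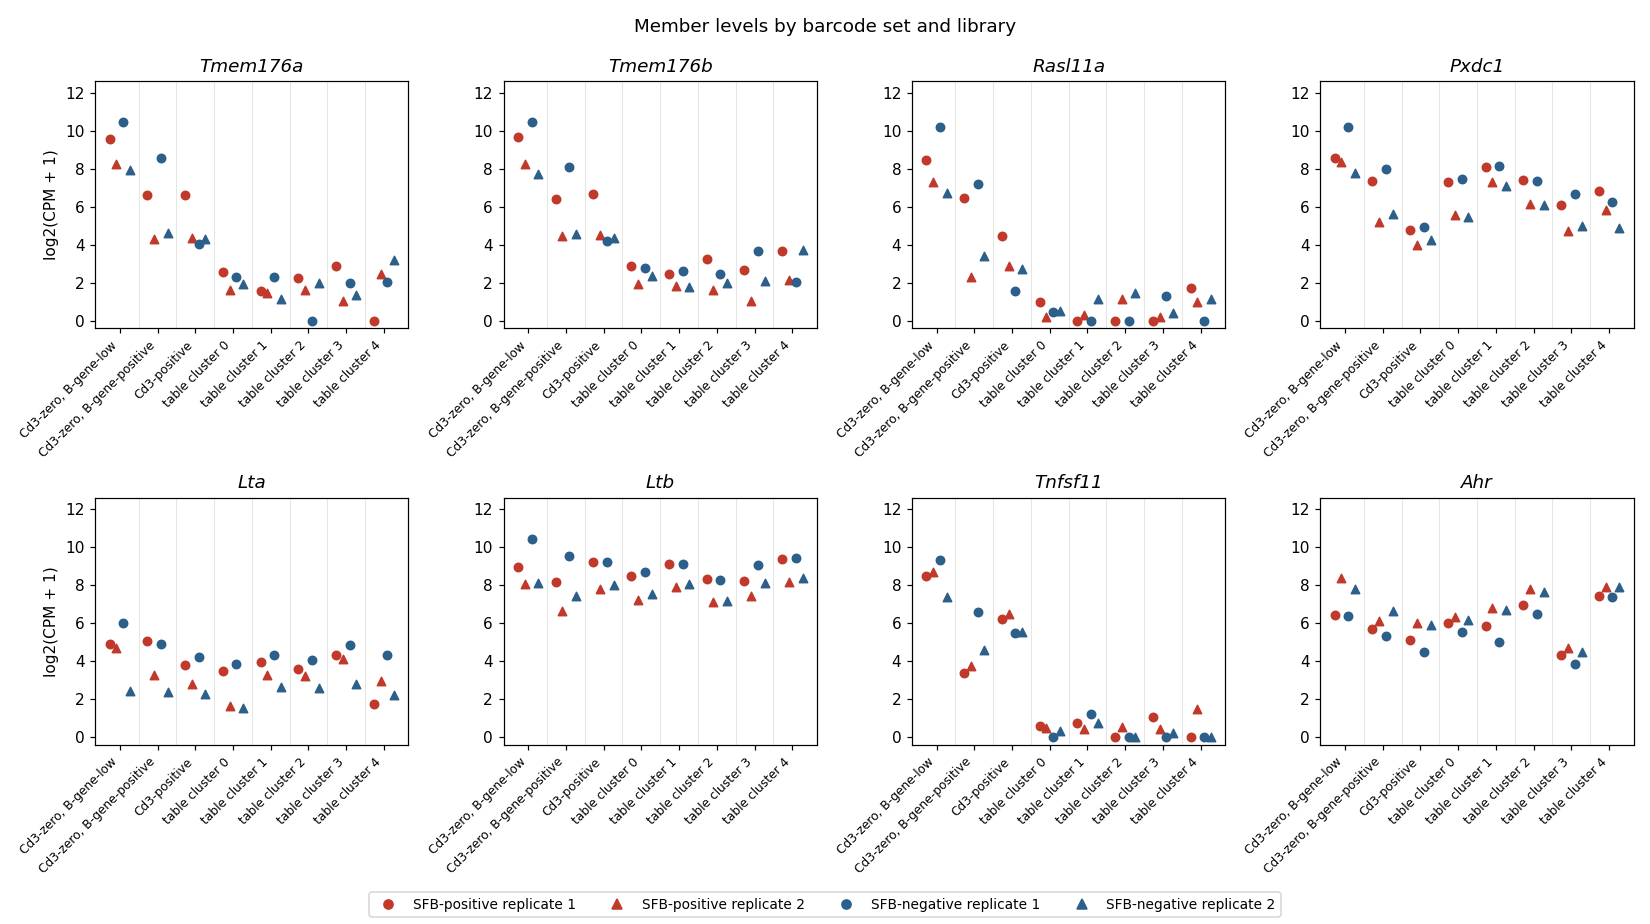
Level of each gene as log2(CPM + 1) (y axis) in 3 barcode sets outside the table and in table clusters 0 to 4 (x axis); each point is 1 library, red SFB-positive, blue SFB-negative, circles replicate 1, triangles replicate 2. Tmem176a, Tmem176b, Rasl11a and Tnfsf11 are above 100 CPM in the B-gene-low Cd3-zero set of each library and at 12.3 CPM or less in the table clusters, whereas Pxdc1, Ltb and Ahr stand at 13.2 CPM or more in each table cluster and library.

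The B-gene-low Cd3-zero barcodes held more than 1 kind of cell. Il22, the cytokine by which ILC3s act on the epithelium, stood there at 2765 and 1797 CPM in SFB-positive libraries and at 8538 and 1021 CPM in SFB-negative libraries, and was seen in 10 of 44 and 38 of 279 barcodes of SFB-positive and in 34 of 79 and 82 of 830 barcodes of SFB-negative libraries. In Cd3-positive barcodes Il22 stood at 458 and 133 CPM in SFB-positive libraries, against 52.7 and 105 CPM in SFB-negative libraries. The 7 ILC3 or LTi markers, Il22 included, summed to 4029 and 3274 CPM in the B-gene-low set (SFB-positive) and to 10616 and 2173 CPM (SFB-negative). Their Cd3-positive sums were 1175 and 927 CPM (SFB-positive) and 576 and 720 CPM (SFB-negative). Il7r, another of the 7, stood at 0.72 and 0.95 of its Cd3-positive level in SFB-positive and at 2.21 and 1.06 in SFB-negative libraries. The 8 myeloid markers summed to 1948 and 1354 CPM in the B-gene-low set of SFB-positive libraries and to 1709 and 860 CPM in that of SFB-negative libraries, 7 or 8 of them being detected. The T-cell list summed to 931 and 165 CPM in SFB-positive and 1052 and 233 CPM in SFB-negative libraries, from receptor constant genes alone, since Cd3d, Cd3e and Cd3g are 0 by choice. No cell type name was given to this set, and the levels above are averages over its cells.

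Within this set, barcodes with 3 or more UMIs over the 8 myeloid genes (8 and 51 in SFB-positive, 8 and 45 in SFB-negative libraries) differed from the other barcodes in opposite ways for Ahr and for 6 of the other genes. Ahr stood in them at 134 and 548 CPM in SFB-positive libraries and at 126 and 428 CPM in SFB-negative libraries. In the other B-gene-low barcodes Ahr stood at 66.4 and 221 CPM in SFB-positive libraries and at 73.6 and 189 CPM in SFB-negative libraries. The fold was 1.71 to 2.47, in 4 of 4 libraries. Tmem176a, Tmem176b, Rasl11a, Pxdc1, Ltb and Tnfsf11 were lower in myeloid-gene barcodes in 4 of 4 libraries, with a count of 0 taken at its limit. The non-member genes Il7r and Il22 were lower there in 4 of 4 libraries as well. The share of all genes that were lower in this way was not computed, so the count is no trait of the members.

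Tmem176a stood at 100 and 177 CPM in myeloid-gene barcodes of SFB-positive libraries and at 587 and 103 CPM in those of SFB-negative libraries. In the other barcodes it stood at 1022 and 357 CPM in SFB-positive libraries and at 1560 and 263 CPM in SFB-negative libraries. It was thus still detected in myeloid-gene barcodes of each library, as was Tmem176b, whose level there was 0.265 to 0.460 of that in the other barcodes. Rasl11a had 0 and 2.13 CPM in myeloid-gene barcodes of SFB-positive libraries and 41.9 and 0 CPM in those of SFB-negative libraries, each value above 0 coming from 1 barcode. Rasl11a in the other barcodes stood at 491 and 232 CPM in SFB-positive libraries and at 1346 and 120 CPM in SFB-negative libraries. Tnfsf11 was likewise seen in 0 and 1 myeloid-gene barcodes of SFB-positive libraries and in 1 and 0 of SFB-negative libraries. Lta had no UMI in them, against 39.8 and 36.4 CPM in the other barcodes of SFB-positive libraries and 73.6 and 5.09 CPM in those of SFB-negative libraries. Its level was shown to be lower in SFB-positive replicate 2 alone, a count of 0 allowing up to 100 and 6.40 CPM in SFB-positive and 126 and 11.9 CPM in SFB-negative libraries.

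Myeloid-gene barcodes were deeper, with median depths of 3094 and 7474 UMIs in SFB-positive and 1757 and 4715 UMIs in SFB-negative libraries, than the other barcodes (1424 and 2621 UMIs in SFB-positive and 1750 and 1476 UMIs in SFB-negative libraries). Each library contributes both sets, so these values are a description without a test.

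**Figure D3:**
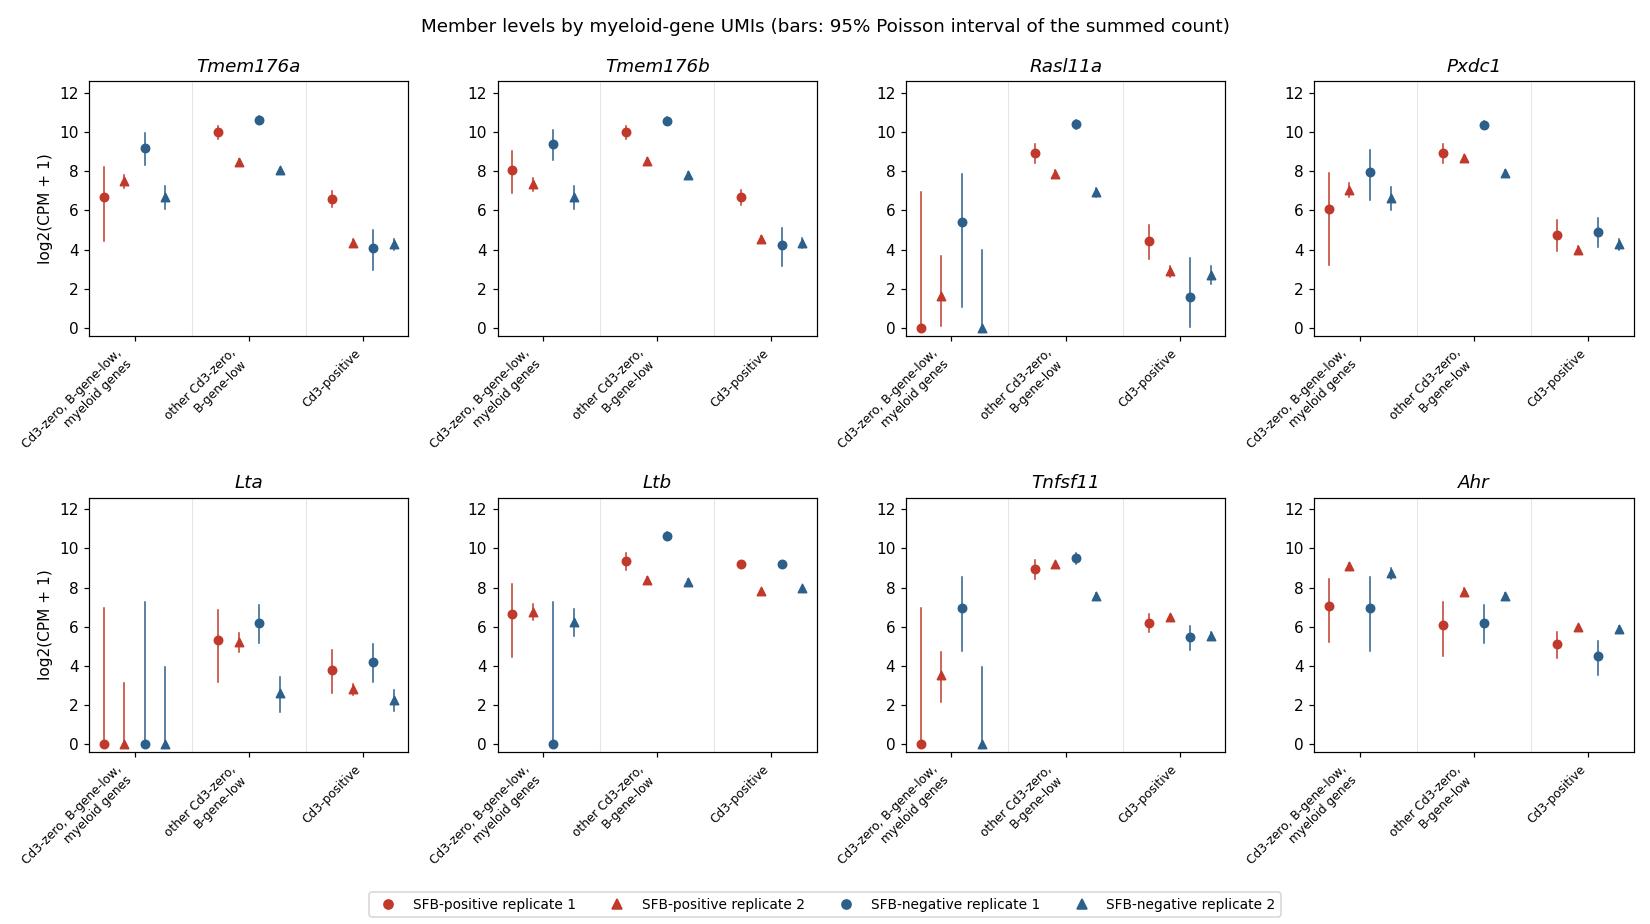
Level of each gene as log2(CPM + 1) (y axis) in myeloid-gene and other barcodes of the B-gene-low Cd3-zero set and in Cd3-positive barcodes (x axis); points are libraries (red SFB-positive, blue SFB-negative, circles replicate 1, triangles replicate 2) and bars the 95% Poisson interval of the summed count. Ahr is 1.71-fold to 2.47-fold higher in myeloid-gene than in other B-gene-low barcodes. Tmem176a, Tmem176b, Rasl11a, Pxdc1, Ltb and Tnfsf11 are lower in 4 of 4 libraries, and the share of all genes that are so was not computed. Lta has no UMI in myeloid-gene barcodes.

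Whether the Cd3 split itself separated the genes was tested over the 4 libraries with library as a block (edgeR quasi-likelihood test, Benjamini-Hochberg adjustment over 10172 genes). Of those genes, 27.2% passed, 13.7% higher and 13.6% lower in Cd3-zero barcodes, and 2 of the 8 genes passed, both higher. Pxdc1 stood at 229 and 73.2 CPM in Cd3-zero barcodes of SFB-positive libraries and at 799 and 89.2 CPM in those of SFB-negative libraries, against 26.1 and 14.8 CPM (SFB-positive) and 29.3 and 18.1 CPM (SFB-negative) in Cd3-positive barcodes; the log2 difference was 2.75 ± 0.43 (SE; edgeR adjusted p = 0.0034). For Ahr the log2 difference was 0.80 ± 0.22 (edgeR adjusted p = 0.0074), higher in 4 of 4 libraries. Rasl11a had the largest estimate, 2.97 ± 0.98 (edgeR adjusted p = 0.13), and was higher in 4 of 4 libraries, as were Tmem176a and Tmem176b. Cd3-zero barcodes include B-gene-positive ones, and in B-gene-low against Cd3-positive barcodes, a comparison added after the data were seen, 7 of the 8 genes passed, all higher, Ltb being the exception, against 22.9% of all genes (13.5% higher). The number called also depended on a single library: without SFB-negative replicate 1 it was 6, with Ltb lower, against 33% of all genes, and without SFB-negative replicate 2 it was 1 (Pxdc1), against 19.3%.

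Of the 22 genes of an LTi identity list, 19 were tested in this comparison and 6 passed, against 27.2% of all genes tested. Kit, Ccr6, Cxcr5 and Nrp1, all surface receptors, were higher in Cd3-zero barcodes (log2 differences 1.90 ± 0.48, 1.60 ± 0.40, 1.37 ± 0.26 and 1.93 ± 0.36). Tox and Itgb7, a regulator of lymphocyte development and an integrin chain on the same list, were lower (-1.93 ± 0.23 and -1.70 ± 0.22). The calls thus went both ways, and no cell type was read from them. The list's median was 0.49, against -0.01 over all genes. B cells also express Cxcr5 and Ccr6. Of 13 other TNF-family ligands 6 were tested: Cd40lg, Fasl and Tnfsf10 were lower and Tnfsf9 was higher in Cd3-zero barcodes. Of the 6 receptors for lymphotoxin and RANK ligand 2 were tested, and both (Tnfrsf1a, Tnfrsf1b) were lower. Of 8 non-canonical NF-κB genes 1 of 8 tested, Map3k14 (the pathway's kinase NIK), was lower, and of 10 Ahr partners and targets none of the 5 tested passed.

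Whether the genes differed with SFB was tested in 3 sets outside the table and in table clusters 0 to 4. The B-gene-positive set was not tested on its own. No member passed in any set: 0 of 8 in Cd3-zero, in B-gene-low Cd3-zero and in Cd3-positive barcodes, and 0 in table clusters 0 to 4, where 6, 5, 4, 5 and 4 members passed the filter on low counts (edgeR without the replicate block; adjusted p = 1.00 for each member); no member had an unadjusted p under 0.05 in that fit, and DESeq2 called none of them. The background in that fit was 0% of genes in each of these sets, with 34, 24 and 23 genes at an unadjusted p under 0.05 in the 3 sets outside the table, and on data simulated with known changes the same fit made no calls, so these counts of 0 carry little information. The libraries of the 2 replicate numbers also differed in the files in software version, in antibody tags (counted for replicate 1) and in depth, though no label says what the number marks. With the replicate number as a term, 0.628% of genes passed in Cd3-zero, 0.145% in B-gene-low Cd3-zero and 2.41% in Cd3-positive barcodes, and 2.16%, 0.981%, 1.14%, 1.35% and 1.53% in clusters 0 to 4. None of the 8 genes was among them in any set, though 5 had an unadjusted p under 0.05 in Cd3-zero and 3 in Cd3-positive barcodes. Over all genes tested, 1317 of 11311 in Cd3-zero and 1020 of 10079 in Cd3-positive barcodes reached that unadjusted p in the same fit.

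In Cd3-zero barcodes the estimates with that term were below 0 for 7 of the 8 genes. Ltb came closest to the threshold: it stood at 350 and 119 CPM in SFB-positive libraries, against 1114 and 199 CPM in SFB-negative libraries, a log2 difference of -1.21 ± 0.27 (edgeR with the replicate block, adjusted p = 0.076). Its log2 ratio was -1.67 within replicate number 1 and -0.74 within number 2. Rasl11a (-1.23 ± 0.34) and Tmem176a (-1.07 ± 0.29) had adjusted p = 0.15 in the same fit. Their log2 ratios were -2.12 (Rasl11a) and -1.68 (Tmem176a) within number 1, and -0.42 and -0.47 within number 2. The median over the 8 genes was -0.94, against -0.02 over all 11311 genes. Without barcodes of over 3000 genes or of more UMIs than any table cell of their library, the same fit gave a median of -0.22. There 3 of the 8 genes were above 0 and none had an unadjusted p under 0.05, against 336 of all 9022 genes tested. Without SFB-negative replicate 1, and so without the replicate term, the median was 0.92, with 7 of the 8 genes above 0. Of the 22 LTi identity genes 1 fell in SFB-positive Cd3-zero barcodes in the fit with that term, Il17a (-3.46 ± 0.61, edgeR adjusted p = 0.032), a cytokine of type 17 lymphocytes. Of all 11311 genes, 42 fell in that fit. Among the Cd3-zero barcodes, the B-gene-low share also differed between libraries (44 of 127 and 279 of 792 in SFB-positive, 79 of 151 and 830 of 2227 in SFB-negative libraries), and its part in the difference was not tested.

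Within B-gene-low Cd3-zero barcodes the 2 replicate numbers went opposite ways for 6 of the 8 genes. The log2 ratios for Tmem176a were -0.90 within number 1 and 0.31 within number 2, for Rasl11a -1.71 and 0.62, for Pxdc1 -1.64 and 0.55, and for Tnfsf11 -0.86 and 1.31. Ltb was below 0 in both numbers (-1.46 and -0.10) and Ahr above 0 in both (0.07 and 0.56). The groups overlapped for 8 of 8 genes in CPM and in the share of barcodes with a UMI after thinning each to 1000 UMIs (shallower ones left out), where the exact permutation test cannot go below 0.333. The shares of all genes that overlapped in this set, or went opposite ways by replicate number, were not computed. Neither count is thus a trait of the members. Epithelial markers summed to 6376 and 442 CPM in SFB-positive libraries and to 1208 and 24.7 CPM in SFB-negative libraries, all 5 markers being detected in each library, and their part in the member levels was not tested.

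In Cd3-positive barcodes 4 of the 8 genes did not overlap between the groups, Tmem176a, Tmem176b, Rasl11a and Tnfsf11, each higher in SFB-positive libraries. Of the 12963 genes with at least 10 UMIs there, 9.26% were likewise higher without overlap. The levels of Tmem176a, Tmem176b and Rasl11a were correlated with each other over the 37 sums (0.81 to 0.96). These 3 are thus not separate observations, and the count of 4 cannot be set against that share as if they were. None of the 4 passed the test. For Tnfsf11 the 2 replicate numbers were alike, with log2 ratios of 0.76 and 0.96, and the difference with the replicate term was 0.72 ± 0.26 (edgeR, adjusted p = 0.16). For Tmem176a the levels were 95.3 and 19.2 CPM in SFB-positive libraries and 15.6 and 18.3 CPM in SFB-negative libraries, so the gap lay in replicate number 1 (log2 ratio 2.61) and not in number 2 (0.07). Its value in SFB-negative replicate 1 rests on 8 UMIs, 7 of them in 1 barcode. Rasl11a had 20.5 and 6.44 CPM in SFB-positive libraries, against 1.95 and 5.48 CPM in SFB-negative libraries, the 1.95 CPM being 1 UMI. Of the LTi identity list, 5 of 20 tested genes rose in SFB-positive Cd3-positive barcodes in the fit with the replicate term (Il17a, Il17f, Il1r1, Il23r and Rora, genes that type 17 T cells share with ILC3s), and none in the fit without it. With the replicate term, 77 of all 10079 genes rose. Among the TNF-family ligands Tnfsf8, the ligand of CD30, rose in the fit with that term (1.35 ± 0.26, edgeR adjusted p = 2.8e-05).

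The difference between the SFB effects in Cd3-zero and Cd3-positive barcodes was tested as an interaction: 0 of the 8 genes passed, with 0% of 10172 genes called by edgeR and 504 at an unadjusted p under 0.05 (1 of them a member), and DESeq2 called none. For Ltb the interaction was -1.07 ± 0.42 (edgeR, adjusted p = 0.97). Without SFB-negative replicate 2, 6 of the 7 genes tested passed, Tmem176a at -4.40 ± 0.49, against 1.11% of all genes, while without each of the other libraries none did.

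**Figure D4:**
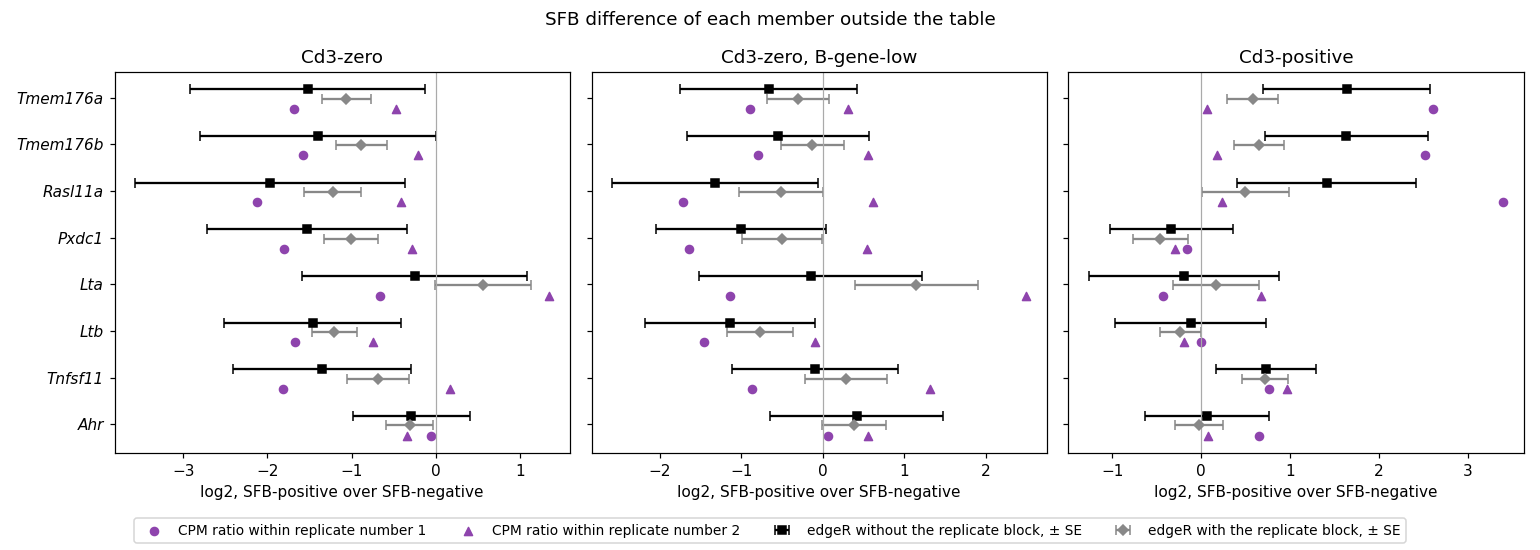
Log2 difference of each gene, SFB-positive over SFB-negative (x axis), in Cd3-zero, B-gene-low Cd3-zero and Cd3-positive barcodes (panels). Black squares are edgeR estimates without and grey diamonds with the replicate block, with SE bars; purple symbols are log2 CPM ratios within replicate number 1 (circles) and 2 (triangles). In the middle panel the purple symbols of Tmem176a, Rasl11a, Pxdc1 and Tnfsf11 lie on opposite sides of 0, whereas in the right panel those of Tnfsf11 are together at 0.76 and 0.96.

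In table cells, with the replicate term, Ahr lay between -0.16 ± 0.27 (cluster 4) and 0.27 ± 0.25 (cluster 1) on the log2 scale. Ltb lay below 0 in each of clusters 0 to 4, furthest in cluster 3, where it stood at 293 and 169 CPM in SFB-positive libraries, against 531 and 270 CPM in SFB-negative libraries (-0.87 ± 0.32, edgeR with the replicate block, adjusted p = 0.22). Tmem176b in cluster 4 had the smallest adjusted p of the members, 0.073 (edgeR with the replicate block, -1.64 ± 0.51), at 11.7 and 3.41 CPM in SFB-positive libraries and 3.14 and 12.3 CPM in SFB-negative libraries. There the groups overlapped, and SFB-negative replicate 1 held 1 UMI. Of 11 LTi identity genes tested in cluster 3, Id2 and Tox rose and Nfil3 fell in SFB-positive libraries with the replicate term. Of all 9876 genes there, 37 rose and 96 fell. Il22 alone passed of 11 LTi identity genes tested in cluster 0, against 229 of all 10612 genes. It stood at 5.35 and 1.36 CPM in SFB-positive libraries (11 and 18 UMIs) and at 6.65 and 4.66 CPM in SFB-negative libraries (19 and 57 UMIs), levels at which free RNA from other cells cannot be told apart from expression. The other lists had no call in clusters 0 to 4.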

How the data were processed

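The count matrices deposited by the authors hold raw UMI counts, and the shallowest barcode of each library has 500 gene UMIs. Cell Ranger 5.0.1 and mm10 are named in the submitters' processing notes; per the file headers, the counts carry version 6.0.0 for replicate 1 and 7.0.0 for replicate 2 libraries. The authors' deposited table gives each cell's library, cluster, UMI and gene count, its mitochondrial percent and its position in a layout (a score); its clusters were used as deposited. The strand and intron settings, the cell filters and any doublet removal are not stated in these sources, and no doublet caller was run.

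The members and lists were chosen with earlier results of these data known. All 8 members are named; genes of the fixed lists are named where they passed a printed test, and for each member up to 3 of the non-member genes of highest correlation.

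UMIs were summed per library and set. Tests used edgeR 4.0.16 (R 4.3.3, robust quasi-likelihood, TMM, filterByExpr, adjusted p limit 0.05). For SFB they covered Cd3-zero, B-gene-low Cd3-zero and Cd3-positive barcodes and table clusters 0 to 4, each with at least 20 barcodes per library. The B-gene-positive Cd3-zero set, though large enough, was not tested on its own. As planned, the fit was made without the replicate number. The fit with it as a block is given beside it, since the files differ by replicate number. Alternatives were RLE scaling, no filter, DESeq2 1.42.0, stricter mitochondrial (5%) and Cd3 (2 UMIs) limits, leaving out the deepest barcodes, and leaving out each library. The deepest barcodes were those of over 3000 genes or of more UMIs than any table cell of their library. Both fits were tested on simulated data, where the fit without the block made no calls. Intervals and count-of-0 limits (3 counts) cover counting error only. Sequences are from RefSeq (GRCm38.p6), gene positions from GENCODE M21. A planned split of the barcodes by a further gene is not reported here.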

Additional observations from a re-analysis of the deposited data

Results flagged for a closer look

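The mean of Tnfsf11 lay in opposite directions between the SFB groups in different sets, without overlap between the libraries of the 2 groups. In Cd3-positive barcodes it averaged 81.0 CPM in SFB-positive and 44.3 CPM in SFB-negative libraries. In B-gene-positive Cd3-zero barcodes it averaged 10.9 CPM in SFB-positive and 59.5 CPM in SFB-negative libraries, and in table cluster 1 it averaged 0.506 CPM in SFB-positive and 0.982 CPM in SFB-negative libraries. The difference between these sets was not tested. Of all genes with at least 10 UMIs in the set, 9.26% were higher without overlap in SFB-positive Cd3-positive barcodes, and 7.48% (B-gene-positive) and 5.36% (cluster 1) were lower without overlap. The cluster 1 values rest on 1 and 6 UMIs in SFB-positive and 2 and 5 UMIs in SFB-negative libraries, with 0.651 against 0.657 CPM at the nearest, a gap within counting error. In B-gene-positive barcodes the SFB-positive value of replicate 1 rests on 2 UMIs and the SFB-negative one on 10.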

How the results depend on the processing

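The replicate numbers are shared by the groups, with 2 pairs and no label saying what a number marks. Without any block, the deviations of same-numbered libraries from their group means correlated at 0.671 (Cd3-zero) to 0.869 (cluster 0). With 2 libraries per group, both replicate numbers give the same value in a set. With the replicate block, the genes called went to 71 (Cd3-zero), 12 (B-gene-low Cd3-zero) and 243 (Cd3-positive) against 0 without it. In clusters 0 to 4 they went to 229, 98, 102, 133 and 130. The members called stayed 0 in each. In Cd3-zero barcodes 1 member (Ltb) passed with DESeq2 and the block, against 1.38% of all genes. That fit was chosen after seeing the data, and the cause was not tested. For Cd3-zero against Cd3-positive barcodes the members called numbered 2, but 5 with DESeq2 (22.6% of all genes), 6 without the deepest barcodes (24.7%) and 7 in B-gene-low barcodes (22.9%), and 1 to 6 when a library was left out (16.4% to 33%). The interaction gave 0, and 0 to 6 when a library was left out, the 6 without SFB-negative replicate 2 (1.11% of all genes). The other member counts did not move. Over the alternatives for single members, 662 values kept their side of the threshold, 23 newly passed and 1 no longer passed. Depth limits Lta, with 3 to 36 UMIs per library in the B-gene-low set.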
